A study of Mus musculus with 4 samples.

Results

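The MAP kinase feedback genes are 8 genes of the 32285 in the deposited count tables: Dusp1, Dusp4, Dusp6, Dusp16, Spry2, Spred1, Etv5 and Rgs16. They were taken by symbol, and all 8 were found. They had been put together because of how they differed between these same 4 libraries, so their levels and ratios below are descriptions and no test is given. The mice were male, wild type, of strain C57BL6J and 8 weeks old, and single cells of their pancreatic islets were profiled after 24 h of culture. The 4 cultures held 1 mM imeglimin with 11.1 mM glucose, DMSO vehicle with 11.1 mM glucose, 1 mM imeglimin with 3.9 mM glucose, and DMSO vehicle with 3.9 mM glucose. Imeglimin is a glucose-lowering drug used in type 2 diabetes. Each condition is 1 library of dispersed islet cells, so no difference has a replicate check. The labels do not say how many mice gave islets to a library.

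MAP kinase cascades pass a signal from a receptor through Ras and Raf to the kinase ERK, and parallel cascades lead to the stress kinases JNK and p38. Active kinases switch on genes that act back on the cascade. Dual-specificity phosphatases remove phosphate from MAP kinases, and Sprouty and Spred proteins hold back Ras and Raf. Etv5 is a transcription factor gene that ERK induces, and Rgs16 acts on G proteins rather than on a MAP kinase. Islet beta cells use ERK signalling downstream of glucose, calcium, cyclic AMP and growth factors.

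Transcription was compared in cell classes that were named from marker genes and carry the ending "-like". Beta-like cells, which make insulin, numbered 5599 with imeglimin against 5072 with vehicle at 11.1 mM, and 4396 with imeglimin against 4655 with vehicle at 3.9 mM. Their insulin transcript Ins2 stood at 211491 CPM (each gene's UMIs scaled to a common total) with imeglimin against 230293 CPM with vehicle at 11.1 mM, and at 178759 CPM with imeglimin against 93730 CPM with vehicle at 3.9 mM. The median UMI count per kept cell, that is, of distinct RNA molecules counted, was between 8832 (imeglimin at 3.9 mM) and 12035 (vehicle at 11.1 mM). Total UMIs per library ran from 91245564 to 106092232, and 19 to 34 barcodes were shared by each pair of libraries. The beta-like class was made of different expression clusters in each library. Clusters 4 and 3 held 46.7% and 38.9% of it with imeglimin at 11.1 mM, cluster 1 held 73.7% with vehicle at 11.1 mM, cluster 2 held 84.9% with imeglimin at 3.9 mM, and cluster 0 held 89.9% with vehicle at 3.9 mM. Beta-like cells with imeglimin at 3.9 mM also stood apart in the summed level of 19 genes that dissociation and heat shock induce. These genes summed to 2952 CPM with imeglimin and 2801 CPM with vehicle at 11.1 mM, and to 10040 CPM with imeglimin and 4360 CPM with vehicle at 3.9 mM. Hspa8, Hsp90aa1 and Hspe1 made up most of both vehicle sums. They had 742, 732 and 300 CPM at 11.1 mM, and 1911, 1336 and 563 CPM at 3.9 mM. With vehicle, 12 of the 19 genes were at least 1.5-fold higher at 11.1 than at 3.9 mM, and 3 were lower. The shares over 11968 genes with a mean of at least 1 CPM were 11.5% higher and 19.2% lower. None of the 19 was at 0, and their part in the results below was not tested.

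The stretches upstream of 4 genes are shown because these are among the 5 members with the highest imeglimin ratios at 3.9 mM glucose. Sequences came from a RefSeq promoter table of build GRCm38.p6, in which all members but Dusp4 were matched. Each line is the 250 bases before the transcript start on the gene's own strand, 5′ to 3′, and capitals mark a match to a searched motif.
Dusp1 (chr17:26508473-26508722, minus strand): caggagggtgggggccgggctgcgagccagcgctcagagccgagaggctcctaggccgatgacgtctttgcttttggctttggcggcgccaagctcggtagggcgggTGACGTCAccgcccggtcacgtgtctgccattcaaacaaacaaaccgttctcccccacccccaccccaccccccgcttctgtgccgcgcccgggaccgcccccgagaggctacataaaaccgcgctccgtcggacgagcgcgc
Dusp16 (chr6:134792629-134792878, minus strand): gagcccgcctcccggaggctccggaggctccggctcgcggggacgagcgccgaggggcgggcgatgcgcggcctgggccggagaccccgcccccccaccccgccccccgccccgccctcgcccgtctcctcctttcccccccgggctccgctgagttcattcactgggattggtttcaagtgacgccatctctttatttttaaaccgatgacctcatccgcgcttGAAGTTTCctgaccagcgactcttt
Spry2 (chr14:105896820-105897069, minus strand): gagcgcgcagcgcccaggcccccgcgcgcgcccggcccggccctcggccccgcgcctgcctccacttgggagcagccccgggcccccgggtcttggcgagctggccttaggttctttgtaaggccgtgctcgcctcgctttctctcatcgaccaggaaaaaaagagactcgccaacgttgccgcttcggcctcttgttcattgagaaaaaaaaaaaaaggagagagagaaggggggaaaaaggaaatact
Rgs16 (chr1:153740103-153740352, plus strand): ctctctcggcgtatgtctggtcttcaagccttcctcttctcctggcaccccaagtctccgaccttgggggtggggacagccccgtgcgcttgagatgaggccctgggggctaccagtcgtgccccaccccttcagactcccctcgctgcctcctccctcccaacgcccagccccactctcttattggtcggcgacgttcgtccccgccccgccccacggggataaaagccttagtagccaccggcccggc

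Both strands were searched for 5 motifs. These were the cyclic AMP response element TGACGTCA, the AP-1 site TGANTCA, the ETS core with flanks CCGGAA, a short heat shock element GAANNTTC and a short form of the ATF4 site, TGATGNAA. Dusp1 held the cyclic AMP response element 143 to 136 bases before the start, and 1.55% of the 32851 promoter windows in the table hold these letters. Dusp16 held the heat shock element 25 to 18 bases before the start, and 6.69% of windows hold it. No searched motif lay in the windows of Spry2 or Rgs16, nor in those of Dusp6, Spred1 or Etv5. The background shares were 6.75% for AP-1, 12% for ETS and 3.45% for ATF4. G and C made up 68.4% of the Dusp1 and Dusp16 windows, 62.4% of the Spry2 window and 66.4% of the Rgs16 window.

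On GRCm38, GENCODE vM21 places the members on 8 chromosomes. Dusp1 (ENSMUSG00000024190) spans chr17:26505590-26562128 on the minus strand and shares exon sequence with Ergic1 on the plus strand. The strand setting of the counting is not given in the sources used here, so the 8614 UMIs of Dusp1 and the 27370 UMIs of Ergic1 could in part be each other's. Dusp4 lies at chr8:34807297-34819894, Dusp6 at chr10:99263231-99267489, Dusp16 at chr6:134715468-134792625 and Spry2 at chr14:105891947-105896819. Spred1 lies at chr2:117121374-117182279, Etv5 at chr16:22381309-22439719 and Rgs16 at chr1:153740349-153745468. Antisense gene models over Dusp16 and Rgs16 had 6 and 2 UMIs.

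In beta-like cells, Rgs16, Dusp4, Dusp1, Spry2 and Dusp16 were more than 3-fold higher with imeglimin than with vehicle at 3.9 mM glucose. At least 1.5-fold higher were 6 of the 8, against 11.5% of 11968 genes with a mean of at least 1 CPM. The genes had been chosen on these contrasts, so this count is a description. At 11.1 mM the genes with the highest imeglimin ratios were Etv5 and Dusp6, and Dusp1, Dusp16 and Rgs16 lay within 1.5-fold of vehicle. Levels below are CPM of the summed UMIs of the class, scaled by the trimmed mean of M-values (TMM). Ratios are log2 of imeglimin over vehicle with exact 95% intervals that cover counting error only. In sparse counts from whole cell classes, fewer cells with a transcript and less transcript per cell cannot be told apart from the sums alone.

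Among the phosphatases, Dusp4, a nuclear enzyme that acts on ERK, JNK and p38, had 15.7 CPM (1121 UMIs) with imeglimin and 9.15 CPM (640 UMIs) with vehicle at 11.1 mM. At 3.9 mM it had 33.4 CPM (1733 UMIs) with imeglimin and 7.68 CPM (595 UMIs) with vehicle. The log2 ratio was 0.78 (0.64 to 0.92) at 11.1 mM and 2.12 (1.99 to 2.26) at 3.9 mM. Both imeglimin libraries lay above both vehicle libraries.
Dusp16, a phosphatase that prefers JNK and p38, had 7.09 CPM (506 UMIs) with imeglimin and 7.72 CPM (540 UMIs) with vehicle at 11.1 mM, and 25.1 CPM (1302 UMIs) with imeglimin and 7.41 CPM (574 UMIs) with vehicle at 3.9 mM. Its ratio was −0.12 (−0.30 to 0.06) at 11.1 mM and 1.76 (1.62 to 1.91) at 3.9 mM. The imeglimin library at 3.9 mM stood alone, and the other 3 levels lay within counting error of each other for every neighbouring pair.
Dusp1, an immediate-early phosphatase of p38, JNK and ERK, had 15.7 CPM (1118 UMIs) with imeglimin and 14.0 CPM (977 UMIs) with vehicle at 11.1 mM. At 3.9 mM it had 13.6 CPM (703 UMIs) with imeglimin and 3.44 CPM (266 UMIs) with vehicle. The ratio was 0.17 (0.04 to 0.29) at 11.1 mM and 1.98 (1.78 to 2.19) at 3.9 mM. Here the vehicle library at 3.9 mM was the low one, and the other 3 were close together.
Dusp6, a cytoplasmic phosphatase selective for ERK, was scarce, with 5.17 CPM (369 UMIs) with imeglimin and 2.04 CPM (143 UMIs) with vehicle at 11.1 mM, and 0.656 CPM (34 UMIs) with imeglimin and 0.542 CPM (42 UMIs) with vehicle at 3.9 mM. The ratio was 1.34 (1.06 to 1.63) at 11.1 mM and 0.27 (−0.42 to 0.96) at 3.9 mM. Both 11.1 mM libraries lay above both 3.9 mM libraries, and at 3.9 mM a difference was not detectable at this depth.

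Spry2, a Sprouty protein that restrains receptor tyrosine kinase signalling to Ras, had 11.7 CPM (838 UMIs) with imeglimin and 6.39 CPM (447 UMIs) with vehicle at 11.1 mM. At 3.9 mM it had 47.8 CPM (2475 UMIs) with imeglimin and 13.5 CPM (1048 UMIs) with vehicle. The ratio was 0.88 (0.71 to 1.05) at 11.1 mM and 1.82 (1.71 to 1.92) at 3.9 mM. Imeglimin was higher at each glucose level, and each 3.9 mM library was above its 11.1 mM counterpart.
Spred1, a membrane-bound inhibitor of Ras activation that works with neurofibromin, had 2.13 CPM (152 UMIs) with imeglimin and 1.23 CPM (86 UMIs) with vehicle at 11.1 mM, and 2.14 CPM (111 UMIs) with imeglimin and 2.98 CPM (231 UMIs) with vehicle at 3.9 mM. The ratio was 0.79 (0.40 to 1.19) at 11.1 mM and −0.48 (−0.82 to −0.15) at 3.9 mM. Both imeglimin libraries lay between the vehicle libraries. The 11.1 mM ratio was 0.31 when every cell was thinned to 3000 UMIs, and 1.45 without the 1% of cells with most Spred1 UMIs.

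Etv5, an ETS transcription factor whose gene is induced by ERK, had 19.8 CPM (1416 UMIs) with imeglimin and 7.43 CPM (520 UMIs) with vehicle at 11.1 mM. At 3.9 mM it had 5.65 CPM (293 UMIs) with imeglimin and 3.59 CPM (278 UMIs) with vehicle. The ratio was 1.42 (1.27 to 1.56) at 11.1 mM and 0.66 (0.41 to 0.90) at 3.9 mM. The highest library was imeglimin at 11.1 mM, and the order of the 4 levels held beyond counting error for every neighbouring pair. With plain CPM the 3.9 mM ratio was 0.35, under 1.5-fold.
Rgs16, a GTPase-activating protein that shortens signalling by Gi- and Gq-coupled receptors, had 7.47 CPM (533 UMIs) with imeglimin and 9.65 CPM (675 UMIs) with vehicle at 11.1 mM, and 20.5 CPM (1062 UMIs) with imeglimin and 3.90 CPM (302 UMIs) with vehicle at 3.9 mM. The ratio was −0.37 (−0.54 to −0.20) at 11.1 mM and 2.39 (2.21 to 2.58) at 3.9 mM. Over the class, imeglimin was thus lower at 11.1 mM and higher at 3.9 mM, though at 11.1 mM the direction differed between clusters.

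**Figure D1:**
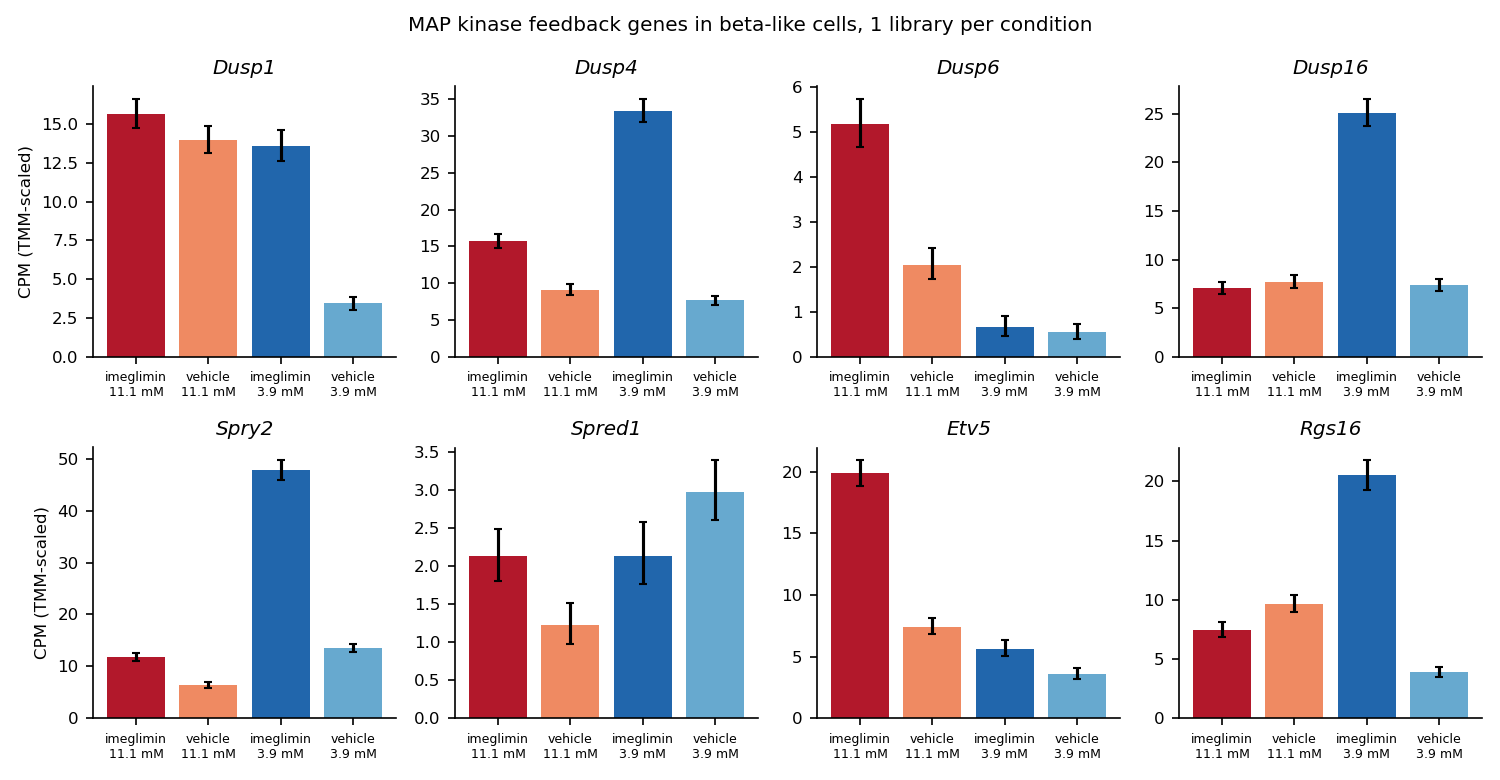
Level of each gene in beta-like cells (vertical axis, TMM-scaled CPM from 0; each panel has its own scale) in the 4 libraries, with imeglimin left of vehicle and 11.1 mM left of 3.9 mM glucose. Bars are single libraries and whiskers are exact 95% Poisson intervals; Dusp4, Dusp16, Spry2 and Rgs16 were highest with imeglimin at 3.9 mM, Etv5 and Dusp6 with imeglimin at 11.1 mM.

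The imeglimin ratios were set against all genes of beta-like cells, with at least 1.5-fold called as a size and not as a changed gene. At 11.1 mM no member reached 20 CPM in either library, where 10% of 5642 genes were called, 5.71% higher and 4.31% lower. At 3.9 mM, 4 members did (Dusp4, Dusp16, Spry2 and Rgs16), and all 4 were called higher, where 22.8% of 6026 genes were called either way, 12.4% higher and 10.5% lower. They passed that limit through the imeglimin library, where they were high, so they had to differ and the count carries no weight. A limit of a mean of at least 1 CPM over the 4 libraries, set after the values were seen, kept all 8 members and 11968 genes. With it, 5 members were called higher and 0 lower at 11.1 mM, against 7.34% and 7.13%, 14.5% in all, among these genes. At 3.9 mM, 6 were called higher and 0 lower, against 11.5% and 17.4%, 28.9% in all. The members' median log2 ratio was 0.79 at 11.1 mM and 1.79 at 3.9 mM, and the median over all these genes was 0.08 at 11.1 mM and −0.003 at 3.9 mM. The members had been chosen on these contrasts, so the counts are given as a description. Nearest to the 1.5-fold size (0.585 on the log2 scale) were Dusp4 inside and Rgs16 outside at 11.1 mM, and Etv5 inside and Spred1 outside at 3.9 mM.

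Ranked from the highest ratio among the 11968 genes at 11.1 mM, Etv5 was number 90, Dusp6 number 100, Spry2 number 280, Spred1 number 388 and Dusp4 number 412. Dusp1 was number 4658, Dusp16 number 8712 and Rgs16 number 10422. At 3.9 mM, Rgs16 was number 22, Dusp4 number 37, Dusp1 number 48, Spry2 number 67 and Dusp16 number 72. Etv5 was number 1085, Dusp6 number 3420 and Spred1 number 9432. Rgs16 thus stood nearest the top of the 8 at 3.9 mM and nearest the bottom at 11.1 mM.

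**Figure D2:**
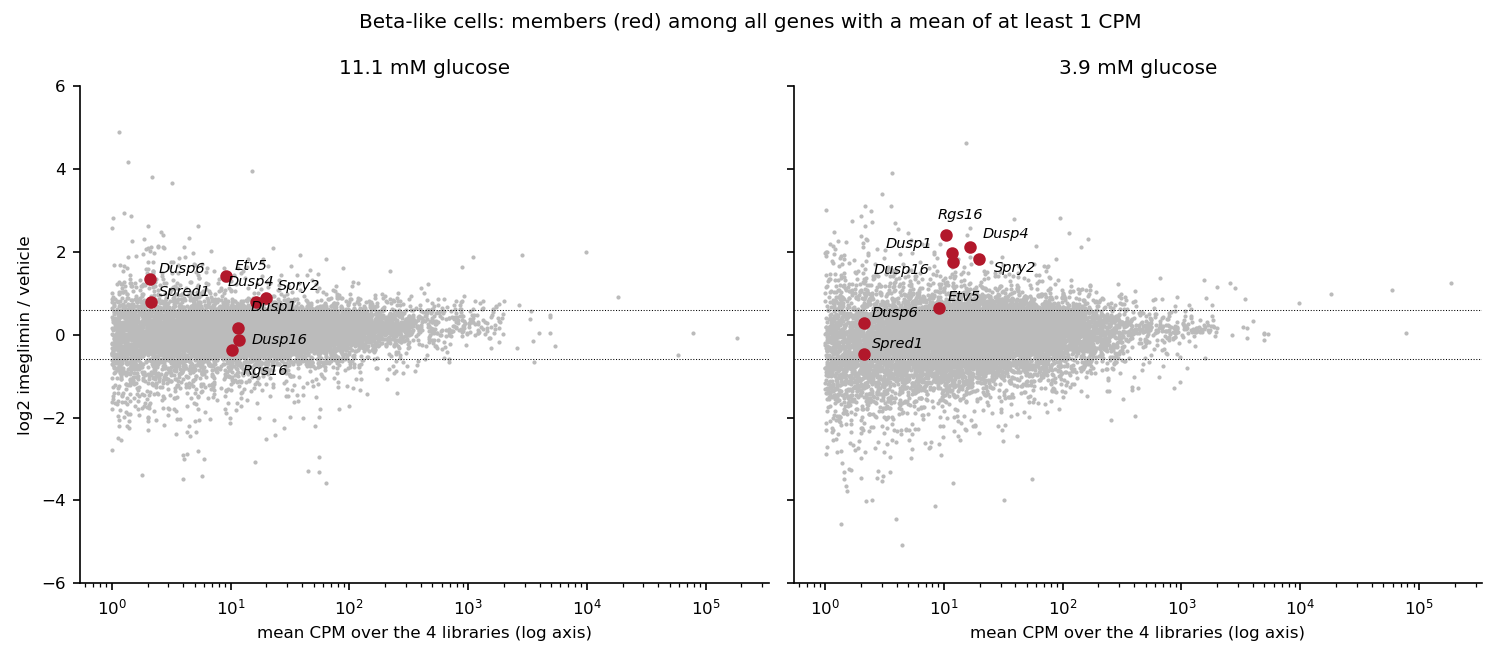
Log2 ratio of imeglimin over vehicle (vertical axis) against mean CPM over the 4 libraries (horizontal axis, log scale) in beta-like cells, at 11.1 mM glucose on the left and 3.9 mM on the right. Each grey point is 1 of 11968 genes, red points are the members and dotted lines mark 1.5-fold; at 3.9 mM Rgs16, Dusp4, Dusp1, Spry2 and Dusp16 lie between 1.76 and 2.39, along the upper edge.

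The ratio at 11.1 mM minus the ratio at 3.9 mM gave the difference between glucose levels directly, with 95% intervals from a normal approximation on the log scale. It was −2.76 (−3.01 to −2.52) for Rgs16, −1.88 (−2.11 to −1.66) for Dusp16 and −1.82 (−2.05 to −1.58) for Dusp1. Dusp4 followed with −1.34 (−1.54 to −1.15) and Spry2 with −0.94 (−1.14 to −0.75), so these 5 had the larger imeglimin ratio at 3.9 mM. The other 3 had the larger ratio at 11.1 mM, with 1.27 (0.77 to 1.77) for Spred1, 1.06 (0.36 to 1.77) for Dusp6 and 0.76 (0.48 to 1.04) for Etv5. All 8 passed 1.5-fold, where 27% of 11968 genes did so either way, 8.96% with the larger ratio at 3.9 mM and 18% at 11.1 mM. Of the 4 with at least 20 CPM in any library, all passed, against 21.9% of 6373 genes, 7.97% with the larger ratio at 3.9 mM and 13.9% at 11.1 mM. These 4 reached 20 CPM only with imeglimin at 3.9 mM, so that count carries no weight.

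Glucose alone, with vehicle, divided the members. Log2 ratios of 11.1 over 3.9 mM were 2.02 (1.83 to 2.22) for Dusp1, 1.91 (1.41 to 2.45) for Dusp6, 1.31 (1.11 to 1.51) for Rgs16 and 1.05 (0.84 to 1.26) for Etv5. Dusp4 had 0.25 (0.09 to 0.41) and Dusp16 0.06 (−0.11 to 0.23), and both turned below 0 with plain CPM. Spry2 and Spred1 were lower at 11.1 mM, with −1.08 (−1.25 to −0.92) and −1.28 (−1.65 to −0.92). Thus 4 members were called higher and 2 lower, against 11.5% and 19.2% of the 11968 genes, 30.7% in all. No member reached 20 CPM in either library, where 30.3% of 5921 genes were called, 9.58% higher and 20.7% lower.

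With imeglimin in both cultures, the same glucose ratio was −2.02 (−2.14 to −1.91) for Spry2, −1.83 (−1.98 to −1.68) for Dusp16, −1.46 (−1.61 to −1.30) for Rgs16 and −1.09 (−1.20 to −0.98) for Dusp4. Dusp6 had 2.98 (2.47 to 3.53) and Etv5 1.81 (1.63 to 2.0), while Dusp1 had 0.21 (0.07 to 0.35) and Spred1 −0.01 (−0.37 to 0.36). Called were 2 higher and 4 lower, against 19.4% each way among 11968 genes, 38.8% in all. The 4 that reached 20 CPM in either library were all lower, where 24.2% of 6061 genes were lower, 14.9% higher and 39.1% called in all. They reached it only with imeglimin at 3.9 mM, so their direction was fixed by the limit and the count carries no weight. The 4 comparisons share libraries, so their values for a gene are not independent.

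Different clusters made up the class in each library, so the members were also set side by side within a cluster, in plain CPM. In cluster 2, led by Snhg1, Mt2, Ddit3 and heat shock genes, Spry2 had 49.7 CPM in 3734 cells with imeglimin at 3.9 mM and 22.5 CPM in 163 cells with vehicle at 3.9 mM. Dusp4 had 34.1 CPM with imeglimin and 19.3 CPM with vehicle there, and Rgs16 had 21.3 CPM with imeglimin and 6.0 CPM with vehicle. Dusp16 had 25.6 CPM with imeglimin and 15.6 CPM with vehicle, and Dusp1 had 14.1 CPM with imeglimin and 6.0 CPM with vehicle in cluster 2. In cluster 0, which held most vehicle cells at 3.9 mM, Spry2 had 30.4 CPM in 190 cells with imeglimin and 16.4 CPM in 4184 cells with vehicle. Dusp4 in cluster 0 had 21.3 CPM with imeglimin and 9.0 CPM with vehicle, and Dusp16 had 14.9 CPM with imeglimin and 8.7 CPM with vehicle. Rgs16 in cluster 0 had 6.3 CPM (3.15 to 11.3, from 11 UMIs) with imeglimin and 4.5 CPM (3.93 to 5.04) with vehicle, and Dusp1 had 4.02 CPM (1.62 to 8.29, from 7 UMIs) with imeglimin and 3.62 CPM (3.15 to 4.15) with vehicle. The counting intervals of imeglimin and vehicle did not overlap within cluster 2 for these 5 genes. In cluster 0 they did not overlap for Spry2, Dusp4 and Dusp16, and did for Rgs16 and Dusp1. The same held in cluster 16, led by Rsad2 and Ifit3, with 244 imeglimin and 91 vehicle cells at 3.9 mM. Rgs16 there had 10.4 CPM (7.14 to 14.6) with imeglimin and 6.65 CPM (3.04 to 12.6) with vehicle. Dusp1 had 11.9 CPM (8.45 to 16.4) with imeglimin and 4.44 CPM (1.63 to 9.65) with vehicle in cluster 16. Values also differed between the clusters. The share of all genes whose intervals did not overlap within a cluster is not given, here or below. The members had been chosen on these contrasts, so the values within clusters are a description.
At 11.1 mM, cluster 3, led by Ero1l, Bnip3 and glycolytic genes, held cells of both libraries. Etv5 there had 15.1 CPM in 2180 cells with imeglimin and 7.8 CPM in 877 cells with vehicle. Dusp4 had 18.2 CPM with imeglimin and 19.0 CPM with vehicle in that cluster. Spry2 had 13.1 CPM (11.8 to 14.4) with imeglimin and 10.9 CPM (9.27 to 12.8) with vehicle, intervals that overlap. Dusp6 had 5.66 CPM (4.87 to 6.55) with imeglimin and 3.63 CPM (2.69 to 4.78) with vehicle, intervals that do not overlap. In cluster 1, which also held cells of both, Dusp4 had 12.2 CPM (8.34 to 17.2) in 257 cells with imeglimin and 4.88 CPM (4.32 to 5.5) in 3739 cells with vehicle. Intervals in cluster 1 overlapped for Spry2, with 5.34 CPM (2.92 to 8.96) with imeglimin and 4.41 CPM (3.88 to 5.0) with vehicle. They also overlapped for Dusp6, with 3.05 CPM (1.32 to 6.01) with imeglimin and 1.57 CPM (1.26 to 1.94) with vehicle. Cluster 4, the other main imeglimin cluster, had 10.5 CPM (9.54 to 11.6) of Dusp4 in 2614 cells with imeglimin. With vehicle it had 11.9 CPM (5.95 to 21.3) in 68 cells. In cluster 11, led by heat shock genes, Dusp4 had 22.0 CPM (15.6 to 30.2) in 229 cells with imeglimin. With vehicle it had 23.6 CPM (18.6 to 29.4) in 284 cells there. The Dusp4 intervals thus overlapped in clusters 4 and 11, its values lay close together in cluster 3, and they lay apart in cluster 1. Dusp1 was higher in cluster 3 than in the other main cluster of each library, with 21.7 against 6.4 CPM for imeglimin and 21.9 against 9.6 CPM for vehicle. Rgs16 in cluster 3 had 8.11 CPM (7.16 to 9.15) with imeglimin and 11.2 CPM (9.47 to 13.1) with vehicle. In cluster 11 it went the other way, with 19.1 CPM (13.2 to 26.8) with imeglimin and 6.12 CPM (3.74 to 9.45) with vehicle. Its intervals overlapped in clusters 1 and 4.

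Counts per cell were low, and no beta-like cell held more than 11 UMIs of a member. After thinning each cell to 3000 UMIs, 19.9% (18.9 to 21.0, exact binomial) of beta-like cells had at least 1 UMI of any member with imeglimin at 11.1 mM, against 15.7% (14.7 to 16.7) with vehicle. At 3.9 mM the share was 35.1% (33.7 to 36.6) with imeglimin and 13.4% (12.4 to 14.4) with vehicle. At least 2 members were seen in 2.19% of cells with imeglimin against 1.12% with vehicle at 11.1 mM, and in 5.87% with imeglimin against 1.12% with vehicle at 3.9 mM. Without thinning, the shares with at least 1 member were 58.3% with imeglimin against 47.9% with vehicle at 11.1 mM, and 71.7% with imeglimin against 46.5% with vehicle at 3.9 mM. Thinning left out 53 to 100 beta-like cells of each library but vehicle at 3.9 mM, where it left out 28.
By gene, thinned cells with a Spry2 UMI made up 12.3% with imeglimin against 4.13% with vehicle at 3.9 mM. The share with a Dusp4 UMI was 9.36% with imeglimin and 2.46% with vehicle, and with an Rgs16 UMI 5.56% with imeglimin and 1.51% with vehicle. An Etv5 UMI was seen in 4.85% of cells with imeglimin against 2.19% with vehicle at 11.1 mM. As a measure of free RNA, endothelial-like cells thinned likewise had an Rgs16 UMI in 1 of 177 cells with imeglimin and 0 of 132 with vehicle at 11.1 mM, and in 1 of 216 with imeglimin and 0 of 126 with vehicle at 3.9 mM. The median depth before thinning was 12692 UMIs in beta-like and 2804 in endothelial-like cells with imeglimin at 11.1 mM, and 12927 and 4986 with vehicle. At 3.9 mM it was 10131 in beta-like and 3599 in endothelial-like cells with imeglimin, and 12165 and 5636 with vehicle.

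**Figure D3:**
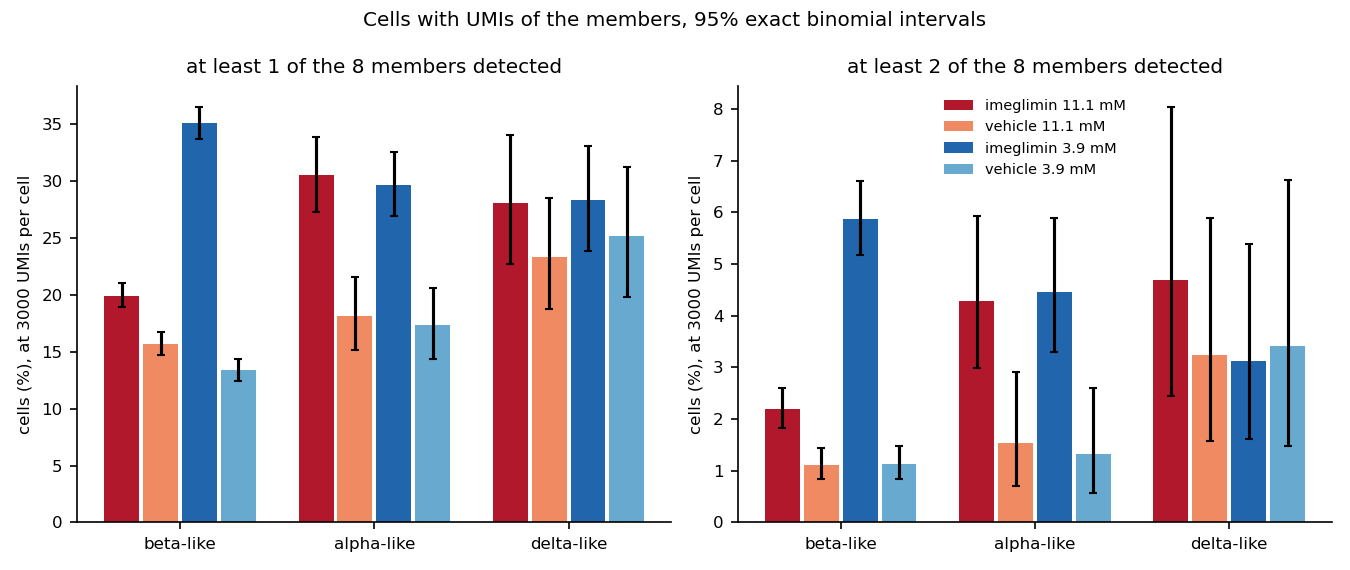
Share of beta-, alpha- and delta-like cells (vertical axis, percent from 0) in which at least 1 (left panel) or at least 2 (right panel) of the 8 genes had a UMI after thinning to 3000 UMIs per cell, with exact 95% binomial intervals. Bars run imeglimin then vehicle, 11.1 mM then 3.9 mM; the share with at least 1 gene in beta-like cells is 35.1% with imeglimin at 3.9 mM and 13.4% to 19.9% in the other libraries.

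Alpha-like cells, which make glucagon and numbered 830 with imeglimin against 631 with vehicle at 11.1 mM and 1080 with imeglimin against 628 with vehicle at 3.9 mM, showed their highest ratios in Dusp4. It had 18.9 CPM (101 UMIs) with imeglimin and 1.80 CPM (8 UMIs) with vehicle at 11.1 mM, and 25.4 CPM (216 UMIs) with imeglimin and 2.16 CPM (13 UMIs) with vehicle at 3.9 mM. The log2 ratio was 3.39 (2.36 to 4.64) at 11.1 mM and 3.56 (2.75 to 4.49) at 3.9 mM. RNA leaking from beta-like cells, judged by Ins2, would give alpha-like cells at most 1.55 CPM of Dusp4. The class was made of different clusters by treatment. Cluster 6 held 786 of the 830 imeglimin and 107 of the 631 vehicle cells at 11.1 mM, and 990 of the 1080 imeglimin and 53 of the 628 vehicle cells at 3.9 mM, while cluster 9 held the other 524 and 575 vehicle cells. Within cluster 6, in plain CPM, Dusp4 had 18.6 CPM (15.1 to 22.6) with imeglimin and 3.08 CPM (0.373 to 11.1, from 2 UMIs) with vehicle at 11.1 mM. In that cluster at 3.9 mM, Dusp4 had 24.2 CPM (21.0 to 27.7) with imeglimin and 2.74 CPM (0.069 to 15.3, from 1 UMI) with vehicle. Cluster 6 is a main cluster, and its sub-clusters also differed by treatment. Sub-cluster 6.6, led by Fgb, Pyy and Ppy, held 33 of the 53 vehicle cells and 0 imeglimin cells at 3.9 mM. At 11.1 mM it held 60 of the 107 vehicle cells and 44 imeglimin cells. The values within cluster 6 are thus not from like cells. The part of the cluster make-up in the alpha-like ratios was not tested.
Spry2 was also higher in alpha-like cells at both glucose levels, with 17.6 CPM with imeglimin and 7.20 CPM with vehicle at 11.1 mM, and 28.0 CPM with imeglimin and 8.98 CPM with vehicle at 3.9 mM. Within cluster 6 its counting intervals overlapped, at 17.4 plain CPM with imeglimin against 9.25 with vehicle at 11.1 mM, and at 26.0 plain CPM with imeglimin against 19.2 with vehicle at 3.9 mM. Over the class its ratio was 1.29 (0.70 to 1.92) at 11.1 mM and 1.64 (1.21 to 2.10) at 3.9 mM. Spred1 likewise had 0.99 (0.39 to 1.61) and 0.92 (0.47 to 1.39) in that order, and Dusp1 0.59 (0.19 to 0.99) and 0.81 (0.34 to 1.30). Dusp16 had 0.62 (0.27 to 0.99) at 11.1 mM and 0.49 (0.19 to 0.79) at 3.9 mM. Rgs16 had −0.44 (−1.29 to 0.41) and −0.24 (−0.97 to 0.49), intervals that span 0, where beta-like cells had 2.39 at 3.9 mM.
With a mean of at least 1 CPM, 5 members were called higher in alpha-like cells at 11.1 mM and 6 at 3.9 mM, with 0 lower at either. Among 12528 genes, 10.5% were called higher and 11.3% lower at 11.1 mM, 21.8% in all, and 13.9% higher and 15.1% lower at 3.9 mM, 29% in all. The difference between the imeglimin ratios at 11.1 and 3.9 mM had an interval that included 0 for each of the 8 in alpha-like cells. For Dusp4 it was −0.16 (−1.48 to 1.15).

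Delta-like cells, which make somatostatin and numbered 243 to 393 per library, had few UMIs of any member. They too lay in different clusters by treatment. At 3.9 mM cluster 5.1 held 293 cells with imeglimin and 4 with vehicle, and cluster 5.0 held 11 with imeglimin and 221 with vehicle. At 11.1 mM cluster 5.0 held 24 cells with imeglimin and 180 with vehicle, and cluster 5.4 held 145 with imeglimin and 118 with vehicle. Etv5 had 13.0 CPM (21 UMIs) with imeglimin and 2.24 CPM (5 UMIs) with vehicle at 11.1 mM, and 12.8 CPM (36 UMIs) with imeglimin and 2.03 CPM (4 UMIs) with vehicle at 3.9 mM. The ratio was 2.54 (1.10 to 4.31) at 11.1 mM and 2.65 (1.17 to 4.60) at 3.9 mM, and leaked beta-cell RNA judged by Ins2 would give at most 0.336 CPM. Dusp4 had 1.09 (0.09 to 2.13) and 1.73 (0.61 to 3.04) in that order. Dusp1 was lower with imeglimin at 3.9 mM, with 7.10 CPM (20 UMIs) against 14.2 CPM (28 UMIs) with vehicle, a ratio of −1.0 (−1.91 to −0.12). At 11.1 mM its ratio was −0.72 (−1.74 to 0.23). In cluster 5.4 at 11.1 mM, Dusp4 had 9.28 plain CPM with imeglimin and 10.1 with vehicle, Dusp1 had the same UMI counts and values, and Etv5 had 12.4 with imeglimin and 4.49 with vehicle, all with overlapping counting intervals. The only other cluster, 5.7, held 88 cells with imeglimin against 12 with vehicle at 3.9 mM, and 85 against 15 at 11.1 mM. It thus left few vehicle cells for a comparison within it. Over the class at 3.9 mM most cells of each treatment lay in different clusters, so treatment and cluster cannot be told apart. In all, 4 members were called higher and 2 lower at 11.1 mM, against 10.4% and 14.6% of 12907 genes, 25% in all. At 3.9 mM 3 were called higher and 1 lower, against 14.3% and 17.1% of 12914 genes, 31.3% in all.

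**Figure D4:**
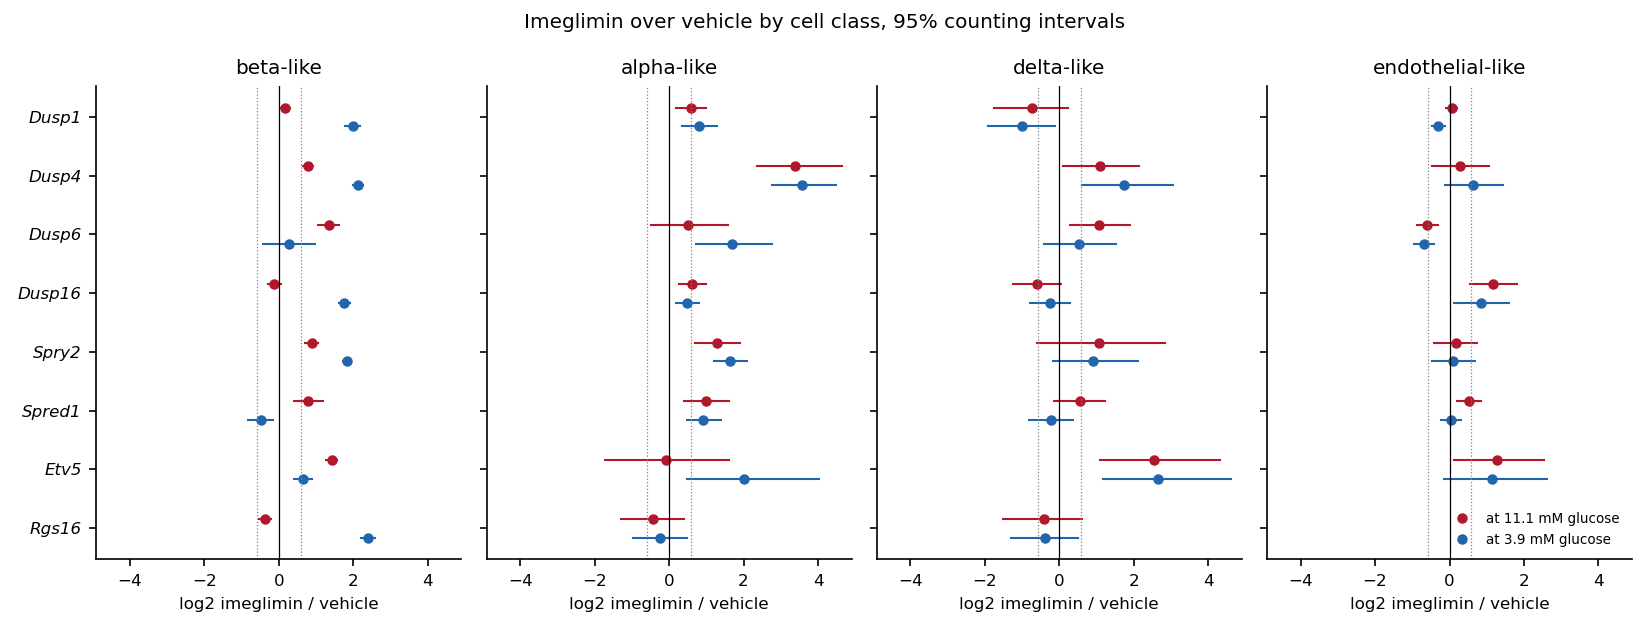
Log2 ratio of imeglimin over vehicle (horizontal axis) for the 8 genes (rows) in 4 cell classes (panels), in red at 11.1 mM and in blue at 3.9 mM glucose, with exact 95% counting intervals. Dotted lines mark 1.5-fold, and Rgs16 in endothelial-like cells is not drawn for lack of UMIs; Dusp4 lies above 0 in beta-, alpha- and delta-like cells at both glucose levels, and Dusp6 in endothelial-like cells lies below 0.

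Endothelial-like cells, which line the islet capillaries, held far higher levels of Dusp1 and Dusp6 than hormone cells. Dusp1 had 672 CPM (873 UMIs) with imeglimin and 648 CPM (727 UMIs) with vehicle at 11.1 mM, and 438 CPM (674 UMIs) with imeglimin and 538 CPM (580 UMIs) with vehicle at 3.9 mM. Its ratio was 0.05 (−0.09 to 0.20) at 11.1 mM and −0.30 (−0.46 to −0.13) at 3.9 mM. Dusp6 was lower with imeglimin at both glucose levels, with 149 CPM with imeglimin and 225 CPM with vehicle at 11.1 mM, and 138 CPM with imeglimin and 223 CPM with vehicle at 3.9 mM. The ratio was −0.59 (−0.87 to −0.32) at 11.1 mM and −0.69 (−0.96 to −0.41) at 3.9 mM. Dusp16 was higher, with 1.18 (0.56 to 1.82) at 11.1 mM and 0.85 (0.13 to 1.61) at 3.9 mM. Endothelial-like cells were shallower with imeglimin, at a median of 2804 UMIs against 4986 with vehicle at 11.1 mM and 3599 UMIs against 5636 with vehicle at 3.9 mM. They also lay in different clusters. At 3.9 mM cluster 8.0 held 217 cells with imeglimin and 8 with vehicle, and cluster 8.2 held 1 with imeglimin and 86 with vehicle. At 11.1 mM cluster 8.1 held 219 cells with imeglimin and 13 with vehicle, and clusters 8.2 and 8.6 held 64 vehicle cells each, with 4 and 0 imeglimin cells. In cluster 8.4 at 11.1 mM, Dusp6 had 145 plain CPM (97.0 to 208) in 37 cells with imeglimin and 216 (168 to 274) in 36 cells with vehicle, intervals that overlap. The parts of the depth gap and of the cluster make-up were not tested.

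Between classes, in plain CPM, endothelial-like cells were highest for Dusp1 and Dusp6 in all 4 libraries. The excess over beta-like cells was 46.9-fold with imeglimin against 50.8-fold with vehicle at 11.1 mM for Dusp1, and 32.0-fold with imeglimin against 132-fold with vehicle at 3.9 mM. For Dusp6 it was 31.6-fold with imeglimin against 121-fold with vehicle at 11.1 mM, and 209-fold with imeglimin against 346-fold with vehicle at 3.9 mM. Spred1 was highest in endothelial-like cells of 3 libraries and in stromal-like cells with vehicle at 11.1 mM. Spry2 was highest in stromal-like cells throughout. Dusp4 and Rgs16 were highest in beta-like cells with imeglimin at 3.9 mM, at 32.8 and 20.1 CPM, and in no other library. Macrophage-like cells had 0 Rgs16 UMIs in all 4 libraries. In pp-like cells, of which there were 57 to 142 per library, Spry2 had 12 UMIs with imeglimin against 6 with vehicle at 11.1 mM, and 39 with imeglimin against 12 with vehicle at 3.9 mM.

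Because Dusp1, Dusp6 and Spred1 are so abundant in endothelial-like cells, their level in beta-like cells was compared with that of 7 endothelial markers. The beta-like level as a share of the endothelial-like level was 2.13% for Dusp1, 3.17% for Dusp6 and 1.19% for Spred1 with imeglimin at 11.1 mM, and 1.97%, 0.828% and 0.984% with vehicle. At 3.9 mM it was 3.12%, 0.478% and 1.17% with imeglimin, and 0.758%, 0.289% and 1.97% with vehicle. The median marker had 0.0168% with imeglimin against 0.0127% with vehicle at 11.1 mM, and 0.0224% with imeglimin against 0.0197% with vehicle at 3.9 mM. The highest marker, Esam or Egfl7, had 0.182% with imeglimin against 0.341% with vehicle at 11.1 mM, and 0.292% with imeglimin against 0.318% with vehicle at 3.9 mM. Only Dusp6 with vehicle at 3.9 mM lay below the highest marker. None of the 7 markers was at 0, and in beta-like cells they summed to 6.33 CPM with imeglimin and 5.85 CPM with vehicle at 11.1 mM, and to 4.71 CPM with imeglimin and 6.21 CPM with vehicle at 3.9 mM.

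**Figure D5:**
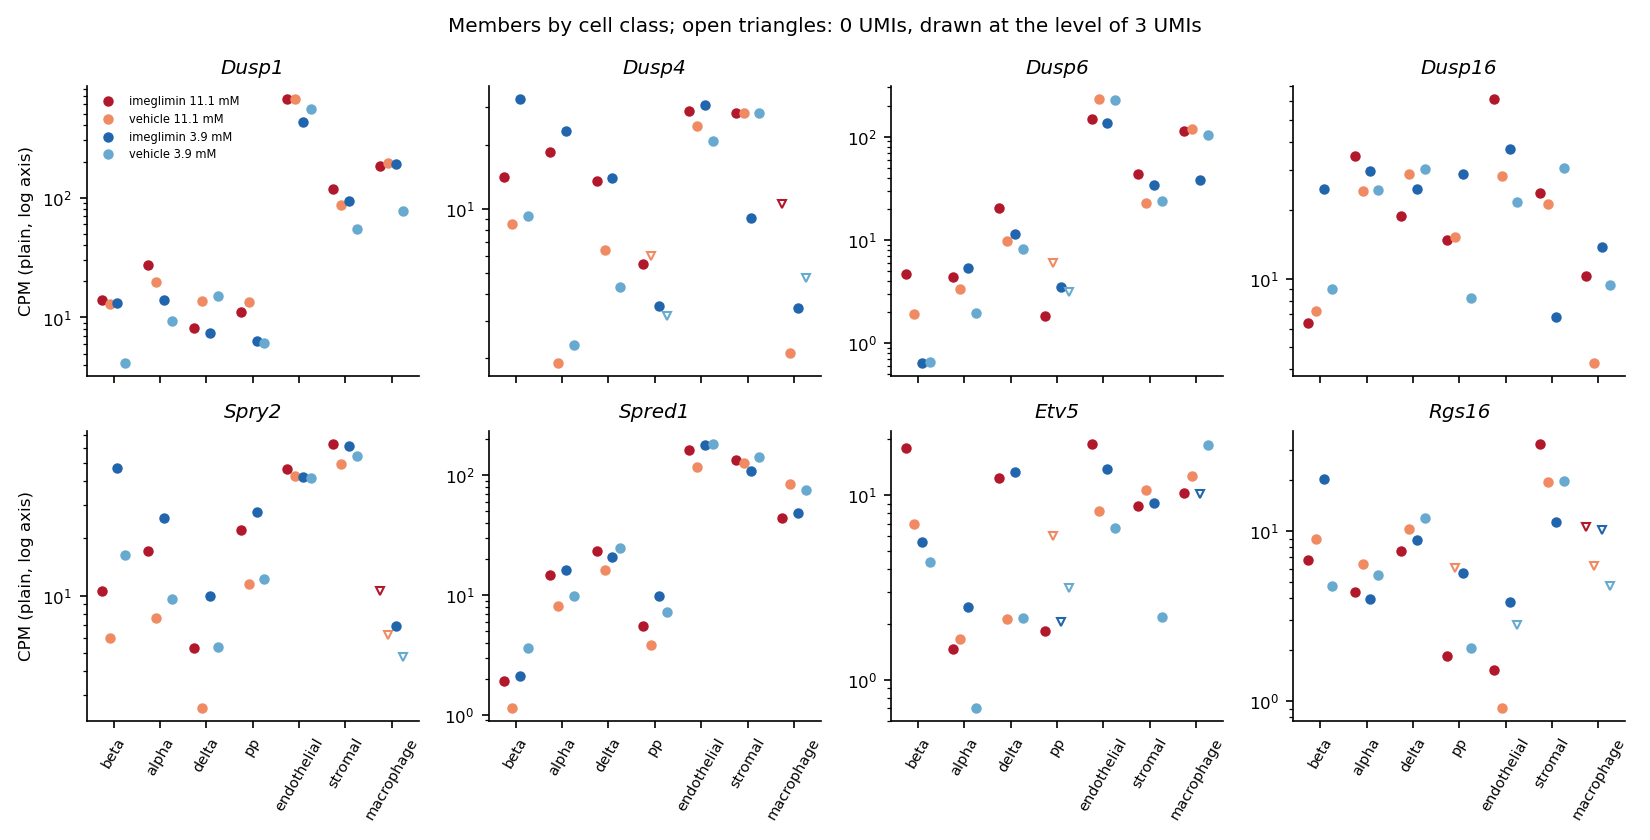
Plain CPM (vertical axis, log scale, one per panel) of each gene in 7 cell classes (horizontal axis) in the 4 libraries, with imeglimin left of vehicle and 11.1 mM left of 3.9 mM. Filled points are single libraries and open triangles mark sums of 0 UMIs drawn at the level of 3 UMIs; Dusp1, Dusp6 and Spred1 are highest in endothelial- or stromal-like cells in every library.

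The rest of the pathway in beta-like cells was described from lists chosen with earlier results of these data known. Counts use the mean of at least 1 CPM, to be read beside 7.34% higher and 7.13% lower among all genes at 11.1 mM, and 11.5% and 17.4% at 3.9 mM. Among 9 other dual-specificity phosphatases, 0 were higher and 1 lower at 11.1 mM, and 3 higher and 1 lower at 3.9 mM. Dusp5, a nuclear ERK phosphatase, had 50.5 CPM with imeglimin and 19.1 CPM with vehicle at 3.9 mM. Dusp8, which acts on JNK and p38, had 67.5 CPM with imeglimin and 25.4 CPM with vehicle at 3.9 mM, but 18 CPM with imeglimin and 20.1 CPM with vehicle at 11.1 mM. Dusp8 thus had the glucose pattern of Dusp16, at 3.9 mM with a ratio of 1.41 and at 11.1 mM with −0.16. Of 11 other Sprouty, Spred and receptor feedback genes, none was called at 11.1 mM, and 3 were higher and 1 lower at 3.9 mM. Rasa2, a Ras GTPase-activating protein, had 51.4 CPM with imeglimin and 34.0 CPM with vehicle at 3.9 mM.

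Upstream, 16 receptors and adaptors held 4 higher and 0 lower at 11.1 mM, and 2 higher and 3 lower at 3.9 mM. Igf1r, the receptor of insulin-like growth factor, had 796 CPM with imeglimin and 365 CPM with vehicle at 11.1 mM, but 143 CPM with imeglimin and 288 CPM with vehicle at 3.9 mM. The adaptor Shc1 had 21.9 CPM with imeglimin and 79.7 CPM with vehicle at 3.9 mM. Irs2, an insulin receptor substrate, had 43.2 CPM with imeglimin and 21.9 CPM with vehicle at 11.1 mM, and 37.0 CPM with imeglimin and 16.4 CPM with vehicle at 3.9 mM. Of 7 ligands, 3 were higher and 1 lower at 11.1 mM, and 3 higher and 0 lower at 3.9 mM. Areg, a ligand of the epidermal growth factor receptor, had 49.9 CPM with imeglimin and 23.8 CPM with vehicle at 3.9 mM.
Of 20 genes from Ras to ERK, 1 was higher and 2 lower at 11.1 mM, and 3 higher and 2 lower at 3.9 mM. Rasgrf1, a calcium-regulated Ras exchange factor, had 38 CPM with imeglimin and 115 CPM with vehicle at 3.9 mM. Rapgef4, the cyclic AMP sensor Epac2, had 34.0 CPM with imeglimin and 53.4 CPM with vehicle at 11.1 mM. In the stress kinase cascade, 0 of 16 were called at 11.1 mM and 1 was lower at 3.9 mM. Of 8 kinases below ERK and p38, 1 was lower at each glucose level and 0 were higher.

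Downstream, 20 genes of ERK-induced transcription held 2 higher and 4 lower at 11.1 mM, and 9 higher and 2 lower at 3.9 mM. Jun, a subunit of AP-1, had 234 CPM with imeglimin and 33.4 CPM with vehicle at 3.9 mM. Egr1, an immediate-early zinc finger factor, had 14.7 CPM with imeglimin and 46.2 CPM with vehicle at 11.1 mM, and Fos had 21.5 CPM with imeglimin and 35.6 CPM with vehicle. Egr1 and Fos were over 10 times higher in another cell class, so free RNA can add to these levels. Of 10 CREB and calcium targets, 7 were higher at 11.1 mM and 6 at 3.9 mM, with 0 lower. Nr4a2, an orphan nuclear receptor, had 53.3 CPM with imeglimin and 15.8 CPM with vehicle at 11.1 mM.
Among 10 other RGS genes, 2 were higher and 1 lower at 11.1 mM, and 2 higher and 2 lower at 3.9 mM. Rgs4 had 45.7 CPM with imeglimin and 95.4 CPM with vehicle at 11.1 mM, and 18.3 CPM with imeglimin and 51.2 CPM with vehicle at 3.9 mM. Rgs4 was thus lower with imeglimin at both glucose levels, unlike Rgs16, whose ratio was below 0 at 11.1 mM only.
Of the 19 dissociation and heat shock genes, which include Jun, 0 were higher and 7 lower at 11.1 mM, and 15 were higher and 1 lower at 3.9 mM. The chaperone gene Hspa1a had 13.4 CPM with imeglimin and 132 CPM with vehicle at 11.1 mM. Nfkbia, the NF-kappaB inhibitor, had 366 CPM with imeglimin and 84.6 CPM with vehicle at 3.9 mM. Of 12 integrated stress response genes, 8 were higher and 0 lower at 11.1 mM, and 5 higher and 1 lower at 3.9 mM. Ddit3, a stress-induced transcription factor, had 387 CPM with imeglimin and 126 CPM with vehicle at 11.1 mM.

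Likeness of pattern was measured as Pearson's r of log2(CPM + 1) over 12 sums, those of beta-, alpha- and delta-like cells in the 4 libraries, across 7600 genes. Sums of a library share its depth and preparation, so r is a description. The genes most like the mean of the 8 members were Ywhaq and Herpud2 (r = 0.92 for both), Acer3, Pbdc1 and Dnajb14. Dusp16 was most like Dusp8 (r = 0.98), Dusp4 most like Exoc5 (r = 0.93), and Spry2 most like Atp6v1b2 (r = 0.97). Dusp6 was most like Unc50 (r = 0.95), Etv5 most like Bet1 (r = 0.95), Spred1 most like App (r = 0.98), Dusp1 most like Tfrc (r = 0.87) and Rgs16 most like Ankrd54 (r = 0.82). Among pairs of members, the highest values were 0.76 for Dusp6 with Spred1 and for Dusp16 with Spred1, and 0.66 for Dusp4 with Spry2. The lowest were −0.53 for Dusp16 with Etv5, −0.52 for Dusp6 with Spry2 and −0.33 for Spry2 with Spred1. The members thus did not share one pattern over these sums, and their mean does not stand for each of them.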

How the data were processed

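The authors deposited raw UMI counts, whole numbers for each barcode and gene, which were used as they stand. Reads were counted with Cell Ranger 6.0.2 on mm10, per the submitters' processing notes. Per the labels' protocols, islets were dispersed with Accutase and about 10000 cells were loaded per 10x 3′ library.

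Barcodes were kept at 1000 UMIs, 500 genes or more and no more than 20% mitochondrial UMIs (scanpy 1.11.5, Python 3.11.15). Scrublet called 0 doublets and so did not work. In an alternative the highest scores, up to 0.8% per 1000 cells, were left out. Leiden clusters (2000 genes, 30 components, 15 neighbours, resolution 1, the 4 libraries together) were named when at least 3 markers of a class were detected, and unclear ones stayed unnamed. Unnamed cells made up 12.35% with imeglimin and 12.43% with vehicle at 11.1 mM. At 3.9 mM they made up 24.41% with imeglimin, at a median of 5283 UMIs, and 17.14% with vehicle. They include sub-clusters of few UMIs that scored highest as beta, and these cells are not in the beta-like class. UMIs were summed per class and library and scaled by TMM. With 1 library per condition no test between conditions was made. Intervals are 95% exact Poisson, conditional binomial or Clopper-Pearson intervals, or normal approximations for differences of ratios, and cover counting error only. A sum of 0 has a floor of 3 UMIs. Genes at least 1.5-fold apart were counted where either library reached 20 CPM in beta-like cells.

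The members and lists were chosen with earlier results of these data known. All 8 members are named, and from each list a few of the up to 3 genes with the largest ratio among those at 20 CPM or more. The calculations were tested on simulated data.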

Additional observations from a re-analysis of the deposited data

Results flagged for a closer look

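Each result here had opposite directions of at least 1.5-fold in 2 classes or treatments, with both counting intervals off 0. None of these differences was tested, because each condition is 1 library.

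At 3.9 mM glucose the log2 ratio of imeglimin over vehicle for Dusp1 was 1.98 in beta-like cells and −1.0 in delta-like cells, a difference of 2.98. It was 0.81 in alpha-like cells, which is 1.81 above the delta-like ratio. The delta-like ratio minus that of macrophage-like cells, which was 1.24, was −2.24. The delta-like sums were 20 UMIs with imeglimin and 28 UMIs with vehicle, from cells in different clusters. Macrophage-like cells at 3.9 mM lay in different clusters too. Cluster 13.0 held 10 of them with imeglimin and 88 with vehicle, and cluster 13.2 held 55 with imeglimin and 2 with vehicle.

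Dusp6 at 11.1 mM had an imeglimin ratio of 1.34 in beta-like cells and −0.59 in endothelial-like cells, a difference of 1.93. In delta-like cells it was 1.08, which is 1.67 above the endothelial-like ratio.

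Dusp16 with imeglimin had an 11.1 over 3.9 mM ratio of −1.83 in beta-like cells and 0.70 in endothelial-like cells, a difference of −2.53. In beta-like cells Rgs16 had an 11.1 over 3.9 mM ratio of −1.46 with imeglimin and 1.31 with vehicle, a difference of −2.76.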

How the results depend on the processing

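No paired analysis was possible because each condition is 1 library, and for the same reason no replicate could be left out. At 3.9 mM the imeglimin ratios of Dusp1 (1.68 to 2.14), Dusp4 (1.82 to 2.31), Dusp16 (1.45 to 1.86), Spry2 (1.51 to 1.95) and Rgs16 (2.09 to 2.53) stayed past 1.5-fold in all 15 alternatives. Etv5 (0.35 to 0.79) fell short of 1.5-fold in 3, Spred1 (−0.93 to −0.35) passed it in 5 and Dusp6 (−0.03 to 0.64) in 1. At 11.1 mM, Etv5 (1.14 to 1.59), Dusp6 (1.13 to 1.75), Dusp4 (0.59 to 0.91) and Spry2 (0.68 to 1.03) stayed past it, and Spred1 ran from 0.31 to 1.45. Dusp1 at 11.1 mM ran from −0.03 to 0.20. With vehicle the glucose ratio of Spred1 ran from −2.22 to −0.81, and with imeglimin that of Dusp6 from 2.35 to 3.18. The count of members past 1.5-fold at 11.1 mM, 0 at the limit of 20 CPM, was 1 in cells of 10000 UMIs or more with no more than 5% mitochondrial UMIs, with clusters of each library alone, and without heat-shock-led clusters. It was also 1 in alternatives added after the data were seen, without heat-shock-led and interferon-led clusters and without beta-named sub-clusters of mixed clusters, since 1 member then reached 20 CPM. With no filter on low counts, or with the added limit of a mean of 1 CPM, it was 5, the count between glucose levels with vehicle was 6 rather than 0, and the count of ratios that differed between glucose levels was 8 rather than 4. Without the 1% of cells with most UMIs, another addition, Dusp6 gave no ratio at 3.9 mM. Plain CPM moved the median of all genes from 0.10 to −0.23 at 3.9 mM and the share of calls that were higher from 54.2% to 12.7%. At 11.1 mM, CPM without hormone and mitochondrial genes moved the median from 0.12 to −0.09 and that share from 57.0% to 20.6%. Between glucose levels, plain CPM moved the median from −0.17 to −0.56 with vehicle and that share from 31.6% to 7.11%, and from −0.15 to −0.28 and from 38% to 26.1% with imeglimin.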
